A study of Mus musculus with 2 samples.

Results

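The 8 genes described here were the 3 chains of complement C1q (C1qa, C1qb and C1qc) and 5 genes used as markers of resident macrophages (Trem2, Pf4, Vcam1, Axl and Mertk). They were taken by gene symbol from the count tables, where all 8 had a row among 27998 genes. The tables came from single-cell RNA sequencing of cells labelled as macrophages from the alveolar bone of male C57/B6 J mice aged 8 weeks. In the control group no force was applied, and in the orthodontic tooth movement (OTM) group, labelled Case, a coil spring had pulled the first molar for 7 days. Each group was 1 library made from cells of pooled mice, which had been released with collagenase and sorted for F4/80 and CD11b, surface proteins of macrophages and other myeloid cells. With 1 library per group no difference between the groups could be tested, and the intervals given throughout are 95% intervals that cover counting error only.

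C1q is the recognition molecule of the classical complement pathway, and it is built from A, B and C chains in equal numbers. In most tissues macrophages are its main source, and C1q also binds apoptotic cells and helps phagocytes to engulf them. TREM2 is a receptor for lipids and apoptotic cells that signals through TYROBP, and it is also found on osteoclasts and their precursors. AXL and MERTK are receptor tyrosine kinases of the TAM family. As a family, these receptors bind phosphatidylserine on dying cells through the bridging proteins GAS6 and PROS1. VCAM1 is an adhesion molecule that binds the integrin alpha4 beta1, and in bone marrow it marks macrophages of the erythroblastic island as well as stromal cells. PF4 is a chemokine best known from platelets and megakaryocytes that is also transcribed in some tissue macrophages.

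In the GRCm38 build the C1q genes were neighbours on the minus strand of chromosome 4, within 18.7 kb. C1qb lay at chr4:136880129-136886187, C1qc at chr4:136889804-136893065 and C1qa at chr4:136895917-136898803. The others were spread over the genome, with Trem2 at chr17:48346401-48354147, Pf4 at chr5:90772435-90773383, Vcam1 at chr3:116109949-116129688, Axl at chr7:25757273-25788705 and Mertk at chr2:128698956-128802894. RefSeq promoter sequences (GRCm38.p6) were at hand for 6 of the 8 genes, all but C1qa and Vcam1. The stretches before the start of C1qb, C1qc and Pf4 are shown because all 3 hold the letters AGGAAGT, a core bound by PU.1 and other ETS factors, on the strand opposite to the gene.
C1qb: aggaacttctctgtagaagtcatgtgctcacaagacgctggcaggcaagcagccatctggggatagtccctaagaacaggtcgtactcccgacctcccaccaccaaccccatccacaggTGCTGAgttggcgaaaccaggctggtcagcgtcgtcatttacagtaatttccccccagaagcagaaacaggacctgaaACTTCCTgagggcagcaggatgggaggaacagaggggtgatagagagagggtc
C1qc: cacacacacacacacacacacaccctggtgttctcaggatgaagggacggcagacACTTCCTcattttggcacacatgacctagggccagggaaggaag
Pf4: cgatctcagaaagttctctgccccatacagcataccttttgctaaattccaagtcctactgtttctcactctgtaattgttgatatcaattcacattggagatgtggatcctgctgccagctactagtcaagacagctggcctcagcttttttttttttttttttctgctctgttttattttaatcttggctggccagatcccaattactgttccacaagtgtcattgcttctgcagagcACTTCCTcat

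The sequences run 5′ to 3′ along the gene's strand, from chr4:136886201-136886450 for C1qb, chr4:136893066-136893164 for C1qc and chr5:90772185-90772434 for Pf4, and stop before the transcripts begin. Capitals mark ACTTCCT, the reverse complement of AGGAAGT, and in C1qb also TGCTGA, a half-site of MAF factors. ACTTCCT began 66 bases before the annotated start of C1qb, 44 bases before that of C1qc and 10 bases before that of Pf4. In the 250 bases before the starts of all 32851 promoters in the table, AGGAAGT was found on either strand in 7.69% and TGCTGA in 16.1%. Neither was found before Trem2, Axl or Mertk. The letters searched were chosen after the sequences had been read, so the matches are a description and no evidence of binding.

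After filtering, 2835 control and 2052 OTM cells remained, with a median of 3998 unique molecular identifiers (UMIs, each 1 captured transcript) per cell in the control and 6861.5 in the OTM library. The 2 libraries shared 6 barcodes, none of which belonged to a C1q-positive cell. Clusters were assigned to classes by marker genes, and although the cells had been sorted, 42.6% of control and 48.0% of OTM cells were neutrophil-like, against 52.7% and 48.8% that were monocyte/macrophage-like. Adgre1, which encodes F4/80, had a UMI in 34.4% of monocyte/macrophage-like and 3.89% of neutrophil-like cells in the control, and in 50.9% and 3.56% in OTM. The largest monocyte/macrophage-like cluster was led by Gsto1 and Cxcl3 in the control and by Saa3 and Apoc1 in OTM, and each library had 1 cluster led by the MHC class II genes H2-Aa, H2-Ab1, H2-Eb1 and Cd74. This MHC-II cluster held 342 control and 262 OTM cells. Because the OTM cells were sequenced more deeply, levels are given in CPM (UMIs of a gene per 1000000 UMIs), and shares of cells with a UMI are set beside shares after each cell was thinned to 1500 UMIs.

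The C1q chains were found mostly in the MHC-II cluster. C1qa stood at 291 CPM there in the control (267 to 317) and at 179 CPM in OTM (163 to 196), and the next highest cluster of each library, a neutrophil-like one, reached 19.03 and 9.87 CPM, of which a single cell held 9 of 12 and 20 of 25 UMIs. C1qb was at 294 and 117 CPM in the MHC-II cluster of the control and OTM libraries, and C1qc at 205 and 107 CPM. In no other cluster did C1qb exceed 10.4 CPM or C1qc 7.93 CPM. The MHC-II cluster held 87.5%, 88.6% and 91.1% of the C1qa, C1qb and C1qc UMIs of the control, and 88.5%, 84.1% and 89.3% of those of OTM. The level in the cluster depended on how finely the cells were clustered. With a resolution of 1.0 in place of 0.6, the highest cluster had 679 CPM of C1qa in the control and 346 in OTM, with 0.3 the OTM cluster had 89.7 CPM, and with the 8 genes among the clustering features the control cluster had 1260 CPM.

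**Figure D1:**
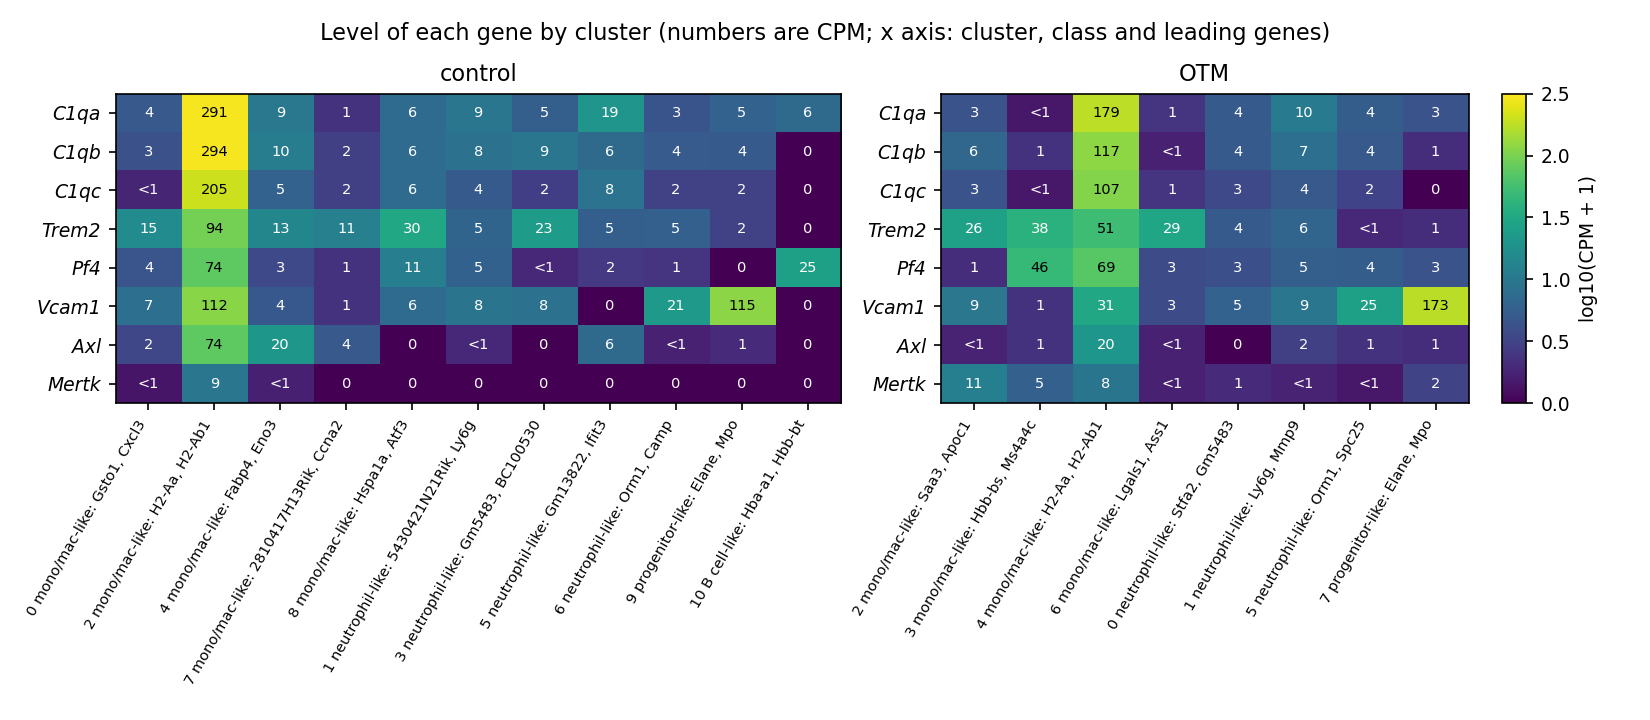
Level of the 8 genes (rows) in each cluster (columns, with class and 2 leading genes) of the control (left) and OTM (right) libraries, where colour is log10(CPM + 1) and the printed number is CPM. The C1q chains are bright in the MHC-II cluster alone (291 CPM of C1qa in the control, 179 in OTM), Vcam1 is bright also in the progenitor-like cluster (115 and 173 CPM), and Trem2 extends over the other monocyte/macrophage-like clusters.

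Among monocyte/macrophage-like cells, a C1qa UMI was found in 5.89% of control (4.75 to 7.21) and 3.60% of OTM cells (2.53 to 4.94). For C1qb the shares were 6.36% and 3.60%, and for C1qc 5.29% and 3.20%. Neutrophil-like cells, which are not a known source of C1q, were taken as the background, with C1qa in 1.57% of control and 1.42% of OTM cells, C1qb in 1.90% and 1.83%, and C1qc in 1.08% and 1.52%. Their median depth was 3054 UMIs in the control and 4756.5 in OTM, below the 4376.5 and 7823 UMIs of monocyte/macrophage-like cells, but the order held after thinning, when C1qa was found in 3.96% against 0.845% of control cells and 1.95% against 0.543% of OTM cells. The proportions of the chains in neutrophil-like and monocyte/macrophage-like cells did not differ beyond their intervals. C1qa made up 42.7% of the C1q UMIs of neutrophil-like cells in the control (32.7 to 53.2) and 43.9% in OTM (33.9 to 54.3), against 36.9% (34.5 to 39.4) and 43.7% (40.7 to 46.8) in monocyte/macrophage-like cells. Neutrophil-like cells held 96 C1q UMIs in the control and 98 in OTM, of which a single cell held 14 and 36. In each library 7 of them had at least 2 chains, so their proportions rest in part on few cells. Between the libraries the proportion of C1qb differed by more than counting error in monocyte/macrophage-like cells, at 37.3% of C1q UMIs in the control (34.9 to 39.8) and 29.7% in OTM (26.9 to 32.5), while C1qc took 25.7% and 26.6%. These intervals treat each UMI as an independent draw and leave out the spread between cells. The 10 cells with the most C1q held 35.2% of all C1q UMIs in the control and 75.9% in OTM.

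**Figure D2:**
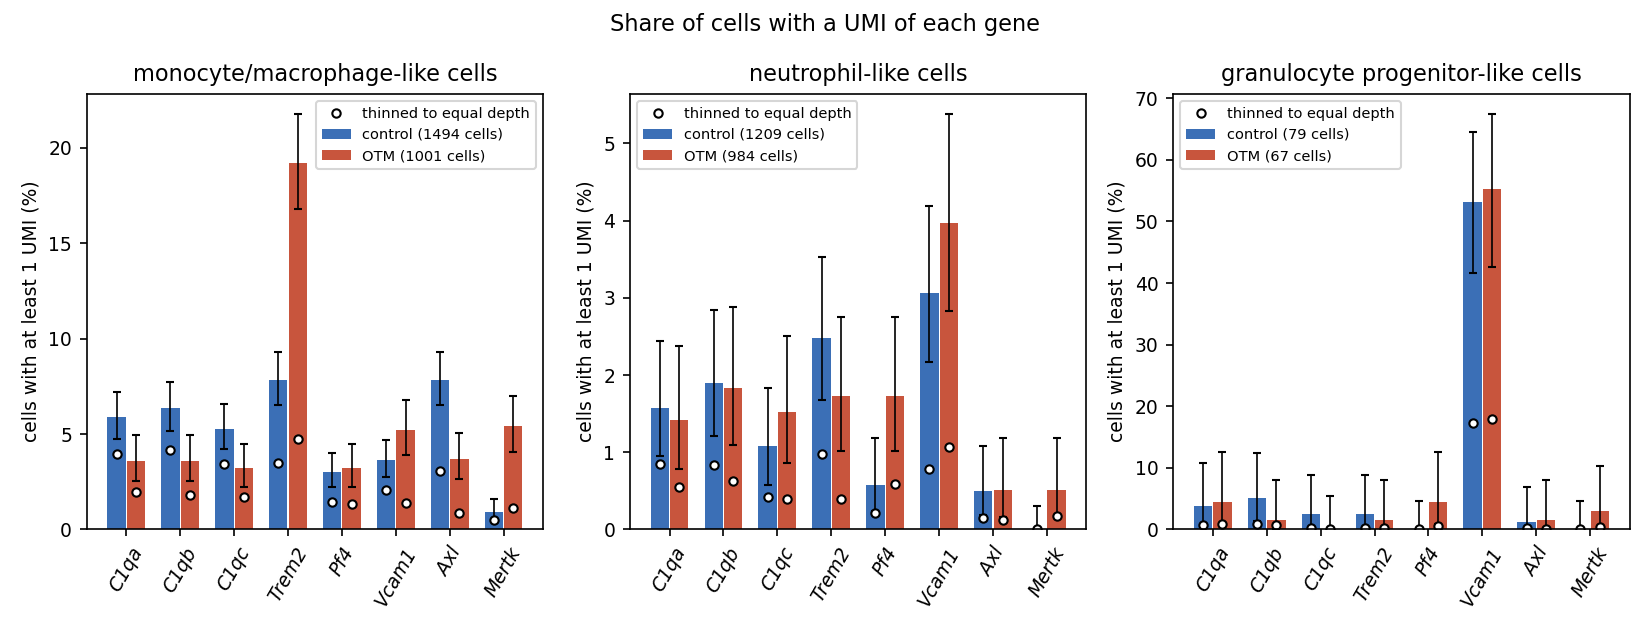
Share of cells with at least 1 UMI of each gene (y axis, percent, from 0, with a scale for each panel) in monocyte/macrophage-like, neutrophil-like and granulocyte progenitor-like cells of the control (blue) and OTM (red) libraries, where bars are shares, lines are 95% exact binomial intervals and open circles are shares after thinning to 1500 UMIs per cell. Trem2 in monocyte/macrophage-like cells went from 7.83% to 19.2% before thinning and from 3.50% to 4.73% after it, and Vcam1 stood above 50% in progenitor-like cells of both libraries before thinning.

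A cell was called C1q-positive when it had UMIs of at least 2 of the 3 chains. There were 78 such cells in the control, or 2.75% of cells (2.18 to 3.42), and 29 in OTM, or 1.41% (0.948 to 2.02), and all 3 chains were found in 60 and 21 of them. After thinning, the expected shares were 1.91% and 0.869%. Of the C1q-positive cells, 62 of 78 in the control and 21 of 29 in OTM lay in the MHC-II cluster, where they were 18.1% and 8.02% of cells. A further 5 control cells lay in a cluster led by Fabp4, Eno3 and Ace, genes of patrolling monocytes, and 7 cells of each library were in neutrophil-like clusters.

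C1q transcripts were concentrated in few cells, more so in OTM. C1q-positive cells held 92.2% of all C1q UMIs in the control and 92.9% in OTM, and the 10 cells with the most C1q held 35.2% and 75.9%. The 5 highest control cells had 121, 85, 67, 50 and 49 C1q UMIs, and the 5 highest OTM cells had 165, 162, 131, 91 and 81. All 10 lay in the MHC-II cluster. The median C1q-positive cell had 14 C1q UMIs in the control and 19 in OTM, among 4236 and 8469 UMIs in all. At the other end, 103 control and 72 OTM cells had a lone C1q UMI.

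Many C1q-positive cells of the OTM library also carried neutrophil RNA. The 14 neutrophil marker genes made up 0.394% to 46.9% of a C1q-positive cell's UMIs in the control, with a median of 0.867%, and 0.583% to 47.5% in OTM, with a median of 23.5%. Among the C1q-positive cells that were monocyte/macrophage-like, the median was 0.817% in the control and 22.0% in OTM. For comparison, it was 0.699% in the remaining monocyte/macrophage-like cells of the control and 0.944% in those of OTM. In neutrophil-like cells the medians were 45.8% and 41.8%. Among C1q-positive monocyte/macrophage-like cells all 14 markers were higher than in the others of their library, in the control and in OTM. More than 10% neutrophil RNA was found in 20 of 78 C1q-positive cells of the control and 21 of 29 of OTM, over all classes. Among monocyte/macrophage-like cells it was found in 12 of 70 C1q-positive cells of the control and 14 of 22 of OTM. The remaining monocyte/macrophage-like cells had it in 10.1% and 15.3%. With the 20 and 21 cells not counted as positive, the C1q-positive share was 2.05% of all control cells (58 cells) and 0.390% of all OTM cells (8 cells). In the range from 5% to 15%, near this limit, lay 9 control and 2 OTM cells. Scrublet, a doublet caller, marked 2 of the 29 OTM cells, and in the control it marked no cell at all. The part that neutrophil RNA has in the C1q results was not tested.

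**Figure D3:**
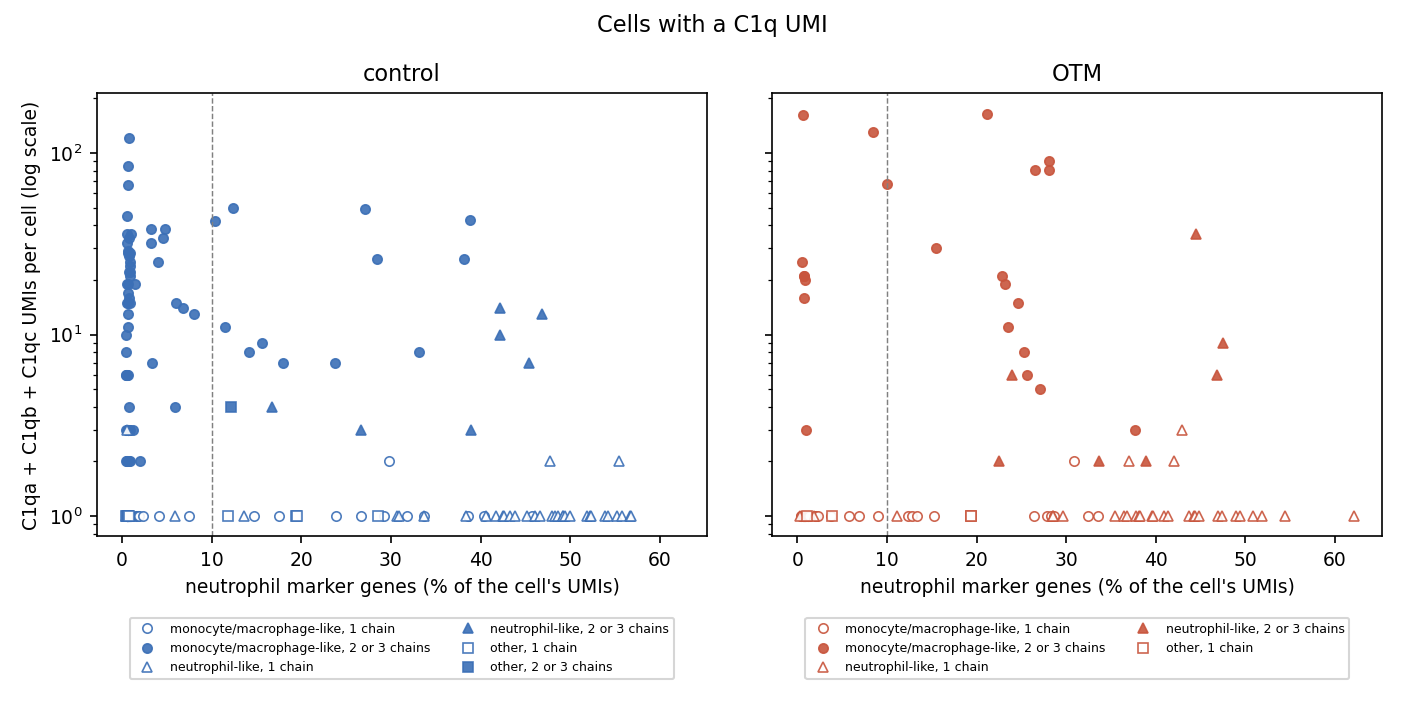
Each point is a cell with a C1q UMI, placed by the share of its UMIs from neutrophil marker genes (x axis, percent) and by its summed C1qa, C1qb and C1qc UMIs (y axis, log scale), for the control (left) and OTM (right). Filled points have UMIs of 2 or 3 chains, shapes give the class and the dashed line is at 10%. In the control 20 of 78 filled points lie beyond the line and in OTM 21 of 29.

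The 3 chains were detected in the same cells. Of 112 control cells with C1qa, 68 had C1qb (60.7%, 51.0 to 69.8) and 62 had C1qc (55.4%), against 1.98% and 1.18% of cells without C1qa. In OTM, 26 of 53 cells with C1qa had C1qb (49.1%, 35.1 to 63.2) and 23 had C1qc (43.4%), against 1.45% and 1.20% of cells without it. By UMIs the overlap was higher still, since cells with C1qa held 87.4% of C1qb UMIs in the control and 91.3% in OTM.

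**Figure D4:**
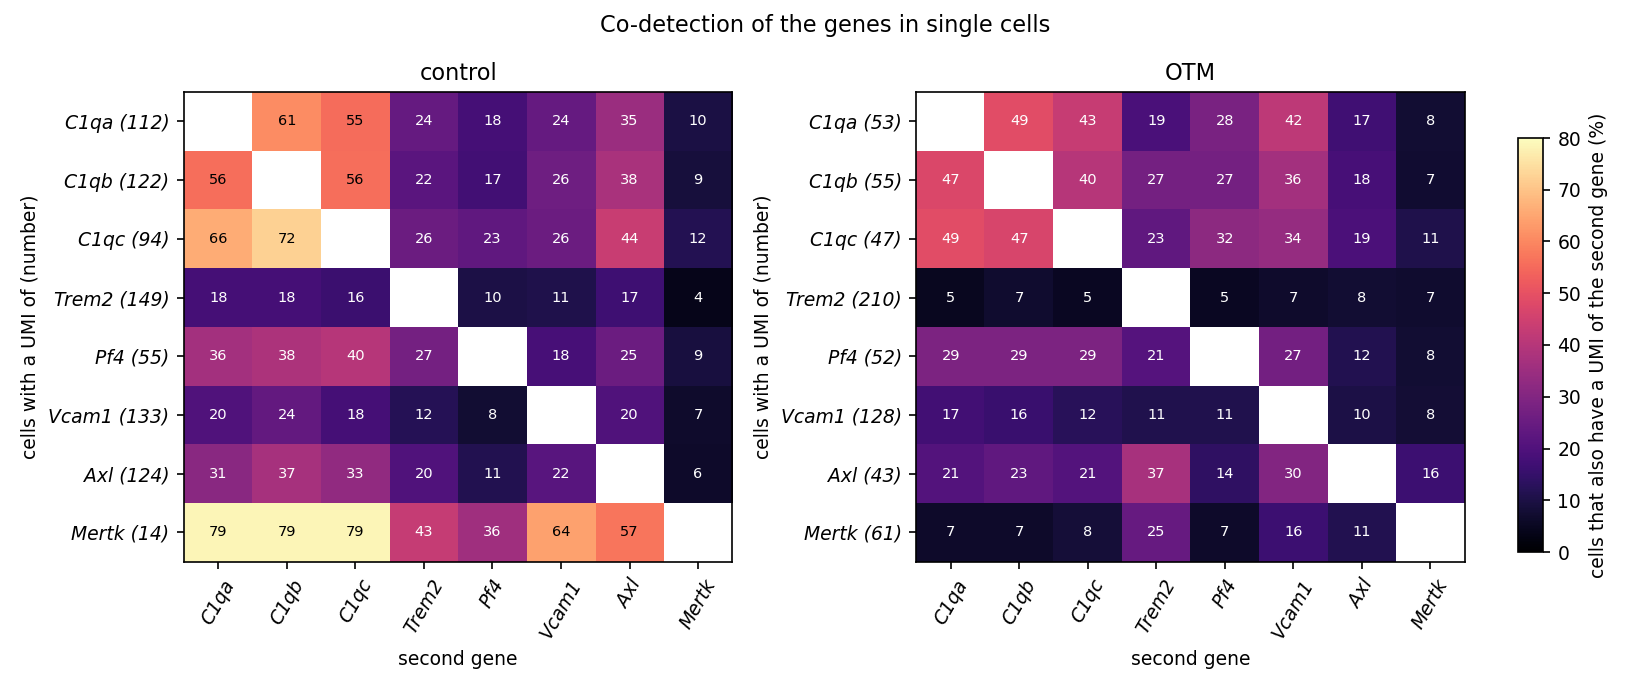
Co-detection in single cells of the control (left) and OTM (right), where each row takes the cells with a UMI of a gene (number in brackets) and each column gives the percent of them that also had a UMI of the second gene. The C1q chains form a bright block in both libraries, with 60.7% of C1qa cells holding C1qb in the control and 49.1% in OTM, and the Mertk row is bright for the C1q chains in the control (78.6% for C1qa) and dark in OTM (6.56% for C1qa).

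The other 5 genes were then compared between C1q-positive and the remaining monocyte/macrophage-like cells, that is between 70 and 1424 cells in the control and between 22 and 979 in OTM. Trem2, Pf4, Vcam1 and Axl were higher in C1q-positive cells of both libraries, by the widest margin for Pf4 and Vcam1. Pf4 stood at 322 CPM in C1q-positive and 4.27 CPM in other cells of the control, a ratio of 75.6 (50.9 to 115), and at 800.4 and 13.9 CPM in OTM, a ratio of 57.6 (45.2 to 73.5). Vcam1 stood at 402 against 10.7 CPM in the control, 37.7 times higher (28.6 to 50.03), and at 275 against 5.79 CPM in OTM, 47.5 times higher (31.9 to 71.0). Axl was 12.3 times higher in the control (8.99 to 16.8) and 13.1 times higher in OTM (6.46 to 24.9). Trem2 was 10.1 times higher in the control (7.75 to 13.1) and 3.70 times in OTM (2.38 to 5.53). Not every C1q-positive cell had these transcripts. Of the 70 control and 22 OTM cells, 19 and 11 had a Pf4 UMI, 22 and 14 Vcam1, 39 and 8 Axl, and 24 and 9 Trem2. Of the 163 Pf4 UMIs of the C1q-positive OTM cells, single cells held 67, 33 and 19. The intervals count UMIs and leave out this spread between cells. With only cells of at most 10% neutrophil RNA, the OTM ratios were 105 for Vcam1, 41.3 for Pf4, 24.6 for Axl and 2.99 for Trem2, and the control ratios 29.6, 78.6, 10.9 and 10.5. This left 58 C1q-positive cells in the control and 8 in OTM, where single cells held 18 and 14 Vcam1 UMIs. With 1 UMI of any chain counted as C1q-positive the ratios were smaller, such as 37.1 for Pf4 in the control and 19.5 in OTM. Of the genes with at least 20 UMIs in the cells compared, which took in 4 of these 5 in the control and all 5 in OTM, 15.6% were at least 2-fold higher and 9.98% at least 2-fold lower in the C1q-positive cells of the control, and 16.4% and 14.3% in those of OTM. All 4 and all 5 were among the higher ones, on log2 ratios with 0.5 UMIs added.

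C1q-positive cells were lower in Ccr2 and Ly6c2, genes of recruited monocytes. Both belong to the 13 monocyte/macrophage markers used to assign clusters, of which 8 were higher in C1q-positive cells in the control and 8 in OTM. Ccr2, the receptor that draws monocytes out of the marrow, was at 168 CPM in C1q-positive and 408 CPM in other monocyte/macrophage-like cells of the control, and at 147 and 391 CPM in OTM, ratios of 0.411 (0.316 to 0.525) and 0.376 (0.253 to 0.538). Ly6c2, a marker of inflammatory monocytes, had ratios of 0.225 and 0.268. Csf1r, the receptor for macrophage colony-stimulating factor, had ratios of 1.65 (1.35 to 2.00) and 1.49 (1.06 to 2.04). Apoe, the apolipoprotein, had a UMI in 74 of the 78 and in all 29 C1q-positive cells. Among monocyte/macrophage-like cells of the control, it had one in 66 of 70 C1q-positive and 922 of 1424 other cells. In OTM these counts were 22 of 22 and 903 of 979, so an Apoe UMI was common in both sets there. Ccr2, Ly6c2 and Csf1r were named after their values were seen.

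Of 20 further genes of resident macrophages, 13 had at least 20 UMIs in these control cells. Among them 10 were at least 2-fold higher in C1q-positive cells and none was 2-fold lower, against 15.6% and 9.98% of all genes, with a median log2 ratio of 2.43 against 0.14. Fcna, a ficolin, had the highest ratio, 48.4 (25.4 to 97.3), followed by Slc40a1, the iron exporter ferroportin, at 15.5 (9.07 to 26.2). The lowest were Stab1, a scavenger receptor, at 1.11 (0.595 to 1.89) and Adgre1 at 1.87 (1.42 to 2.44). In OTM 8 of 11 counted genes were at least 2-fold higher and none lower, against 16.4% and 14.3% of all genes, with a median of 2.76 against -0.04. There Cbr2, a carbonyl reductase, led with a ratio of 45.9 (19.3 to 110.2), followed by Mrc1, the mannose receptor, at 15.7 (6.78 to 33.5). The lowest were Hmox1, the heme-degrading oxygenase, at 1.23 (0.921 to 1.605) and Adgre1 at 1.29 (0.830 to 1.92).

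Beside the neutrophil genes described above, markers of other cell types were looked for in the C1q-positive monocyte/macrophage-like cells. Of 8 megakaryocyte and platelet markers, 7 had no UMI in these cells of the control, where a little Itga2b was found, and 7 had none in OTM, where a little Clec1b was found, and Ppbp was at 0 in both. The 6 dendritic cell markers together took at most 0.229% of a cell's UMIs in the control, where Xcr1 and Ccr7 had none. Of these 6, 4 were higher there than in other cells, and together they took 0.0108% of summed UMIs against 0.00672%. In OTM all 6 were at 0. The 7 osteoclast markers took 0% to 1.28% of a cell's UMIs in the control and 0% to 0.0637% in OTM. In the control 5 of 7 were higher than in other cells, and all 7 took 0.0838% of summed UMIs against 0.0108%. In OTM 4 of 7 were higher, with 0.0172% against 0.00822% of summed UMIs for all 7, and Ctsk, Ocstamp and Calcr were at 0.

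Of the other complement genes, 1 of 10 counted in the control and 2 of 10 in OTM were at least 2-fold higher in C1q-positive cells, close to the 15.6% and 16.4% of all genes. In the control it was C3ar1, the receptor for the anaphylatoxin C3a, with a ratio of 43.5 (21.3 to 94.3), and Cfp, the properdin of the alternative pathway, came next at 1.86 (1.53 to 2.24). C3, the central component, was at 0.516 (0.351 to 0.732), and C1ra, a protease that acts with C1q, had 0 UMIs in C1q-positive and 20 in other cells, for a ratio of at most 3.92, and it was the 1 gene counted as 2-fold lower. In OTM, C3ar1 was 16.3 times (9.22 to 27.8) and Cfp 2.91 times higher (2.34 to 3.59), while C3 was at 0.681 (0.388 to 1.11). The median log2 ratio of the list was 0.50 in the control and 0.09 in OTM, or 0.60 and -0.04 with genes at 0 set to 3 UMIs.

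Trem2 was found mostly outside C1q-positive cells. It had a UMI in 149 control and 210 OTM cells, of which 25 (16.8%) and 9 (4.29%) were C1q-positive, and those held 29.4% and 7.45% of its UMIs. In the control Trem2 was highest in the MHC-II cluster, at 93.7 CPM (80.3 to 109), followed by a stress-gene cluster led by Hspa1a and Atf3 at 29.9 CPM (16.3 to 50.1) and a neutrophil-like cluster at 22.7 CPM (14.5 to 33.8), and the latter pair did not differ beyond their intervals. Of the 24 Trem2 UMIs in the neutrophil-like cluster, 9 were in 1 cell. In OTM it was more even over the 4 monocyte/macrophage-like clusters. There the MHC-II cluster was at 51.5 CPM (42.96 to 61.2), the cluster led by Hbb-bs and Ms4a4c at 38.4 CPM (30.7 to 47.4), a cycling cluster at 28.6 CPM (20.6 to 38.6) and the cluster led by Saa3 and Apoc1 at 25.8 CPM (19.996 to 32.6), and each overlapped its neighbour.

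The cells with the most Trem2 differed from those with the most C1q. In the control the 5 highest had 22, 20, 15, 13 and 9 Trem2 UMIs and 6, 8, 0, 0 and 0 C1q UMIs. Among these, the cells with 20 and 15 Trem2 UMIs also had 121 and 41 UMIs of Acp5 and 30 and 3 of Ctsk, which encode the osteoclast enzymes TRAP and cathepsin K. Of 22 control cells with at least 3 Trem2 UMIs, 9 had a Ctsk UMI and 7 were C1q-positive. In OTM, 31 cells had at least 3 Trem2 UMIs, of which 2 had Ctsk and 4 were C1q-positive. Among monocyte/macrophage-like cells, a Ccr2 UMI was found in 67 of 117 control cells with Trem2 (57.3%, 47.8 to 66.4) against 74.4% of those without it (71.97 to 76.7), and in 179 of 192 OTM cells with Trem2 (93.2%, 88.7 to 96.3) against 82.4% (79.6 to 85.01). Cells with Trem2 were deeper than those without, with medians of 4841 and 4359 UMIs in the control and 9064.5 and 7666 in OTM.

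Of 12 TREM2 signalling genes counted in the control, 2 were at least 2-fold higher in C1q-positive cells, close to the 15.6% of all genes. They were Lpl (lipoprotein lipase) with a ratio of 8.00 (6.15 to 10.3) and Apoe with 5.55 (5.31 to 5.79). Plcg2, a phospholipase downstream of TREM2, was at 0.656 (0.336 to 1.16), and Gpnmb had 0 UMIs in C1q-positive and 58 in other cells, for a ratio of at most 1.27, counted as the 1 gene that was 2-fold lower. In OTM 3 of 12 were higher, beside 16.4% of all genes, led by Apoe with 3.22 (3.09 to 3.35) and the tetraspanin Cd9 with 2.57 (2.02 to 3.24), while Lpl rested on 3 UMIs there. Plcg2 was at 0.540 (0.146 to 1.40), and Cst7 had 0 UMIs in C1q-positive and 34 in other cells, for a ratio of at most 4.86. The median log2 ratio was 0.09 in the control and 0.38 in OTM.

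Pf4 had most of its UMIs within C1q-positive cells in both libraries. It had a UMI in 55 control and 52 OTM cells, of which 20 and 15 were C1q-positive, and these held 73.9% and 56.4% of its UMIs. By cluster it was highest in the MHC-II cluster, at 74.2 CPM in the control (62.3 to 87.7) and 69.2 CPM in OTM (59.2 to 80.3). The 5 highest control cells had 31, 17, 13, 11 and 8 Pf4 UMIs with 121, 14, 28, 67 and 10 C1q UMIs. In OTM the 5 highest had 75, 67, 33, 24 and 19 Pf4 UMIs with 0, 81, 25, 0 and 30 C1q UMIs. The OTM cells with 75 and 24 Pf4 UMIs and no C1q both lay in the cluster led by Hbb-bs and Ms4a4c and had no Ppbp UMI. They account for most of the 46.4 CPM of Pf4 in that cluster, which was 12.9 CPM without the higher of them.

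Vcam1 had a second site of expression outside macrophages. It had a UMI in 42 of 79 control (53.2%, 41.6 to 64.5) and 37 of 67 OTM cells (55.2%, 42.6 to 67.4) of the granulocyte progenitor-like cluster, which was led by Elane and Mpo, the genes of neutrophil elastase and myeloperoxidase. Its level there was 115 CPM in the control (94.8 to 139) and 173 CPM in OTM (147 to 202). In the control the MHC-II cluster was equal to it within the intervals, at 112 CPM (97.4 to 129), whereas in OTM it was at 30.6 CPM (24.1 to 38.3) and did not differ beyond its interval from a cycling neutrophil-like cluster at 25.1 CPM (19.0 to 32.6). Of cells with Vcam1, 69 of 133 in the control and 67 of 128 in OTM had an Elane UMI, and 25 and 16 were C1q-positive. An Elane UMI was also found in 17.4% of control and 19.4% of OTM cells without Vcam1. Cells with Vcam1 were deeper, with medians of 8522 against 3938.5 UMIs in the control and 11660 against 6631 in OTM. The progenitor-like cells had few C1q transcripts, with at most 5.14 CPM of a chain.

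Of the TAM receptors, Axl was a gene of the MHC-II cluster in both libraries, at 74.2 CPM in the control (62.3 to 87.7) and 19.7 CPM in OTM (14.6 to 26.1). In the control the cluster led by Fabp4, Eno3 and Ace came next, at 20.1 CPM (13.6 to 28.5) with a UMI in 24 of 304 cells. Of cells with Axl, 40 of 124 in the control and 9 of 43 in OTM were C1q-positive.

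Mertk had low counts and lay in different cells in the 2 libraries. In the control it had 18 UMIs in 14 cells, of which 12 were in the MHC-II cluster and 11 were C1q-positive. In OTM it had 69 UMIs in 61 cells, of which 27 were in the cluster led by Saa3 and Apoc1, 16 in the MHC-II cluster and 4 were C1q-positive. The levels of these clusters, 10.98 CPM (7.35 to 15.8) and 8.45 CPM (5.23 to 12.9), did not differ beyond their intervals. Among monocyte/macrophage-like cells, a Ccr2 UMI was present in 3 of the 14 control cells with Mertk (4.66% to 50.8%) against 73.5% of those without it, and in 47 of 54 OTM cells (75.1% to 94.6%) against 84.4%. In monocyte/macrophage-like cells, C1q-positive cells were higher in Mertk by a ratio of 96.7 in the control (27.4 to 521), resting on 15 and 3 UMIs, and by 2.92 in OTM (0.771 to 7.90), resting on 4 and 58.

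Of the genes of apoptotic cell clearance, 6 of 13 counted were at least 2-fold higher in C1q-positive cells of the control and none lower, against 15.6% and 9.98% of all genes, with a median log2 ratio of 0.50. Timd4 and Stab1 were also on the resident macrophage list and Lrp1 on the complement list, so the tallies of these lists share genes. Nr1h3, the nuclear receptor LXR alpha, had a ratio of 12.1 (4.90 to 28.3) and Gas6, the ligand of AXL and MERTK, 9.16 (3.65 to 21.3). At the other end were Pros1, the other bridging protein of the TAM family, at 0.658 (0.211 to 1.57) and the receptor Lrp1 at 0.855 (0.524 to 1.32). In OTM 4 of 11 were higher and 4 lower, against 16.4% and 14.3% of all genes, 3 of the latter (Mfge8, Cd36 and Dock1) with no UMI in C1q-positive cells, and the median was -0.28, or 0.95 with these genes set to 3 UMIs. Nr1h3 was again highest, at 10.6 (3.54 to 26.6), followed by Stab1 at 3.52 (2.11 to 5.56), and Cd36, a scavenger receptor, had a ratio of at most 1.43 and Pros1 was at 0.279 (0.00702 to 1.58). Of 4 counted partners of VCAM1 and PF4, none was 2-fold higher in C1q-positive cells of either library. At least 2-fold lower were 1 of 4 in the control and 2 of 4 in OTM, against 9.98% and 14.3% of all genes. The median log2 ratio was -0.44 in the control and -1.28 in OTM. Itgb7 was at 0.312 (0.181 to 0.502) in the control and 0.0392 (0.000992 to 0.219) in OTM, Itga4, the alpha4 integrin, at 0.762 (0.489 to 1.13) and 0.0830 (0.00210 to 0.464), and Itgb1 at 1.35 (0.902 to 1.96) and 1.39 (0.787 to 2.28). The OTM ratios of Itgb7 and Itga4 each rested on 1 UMI in C1q-positive cells, against 1081 and 511 in other cells.

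Between OTM and control, the C1q chains, Vcam1 and Axl were lower in OTM over all cells and Mertk higher. The direction for Vcam1 differed between classes of cells, and the size of the Pf4 ratio depended on the cells kept. Over all cells C1qa went from 42.4 CPM in the control (39.1 to 45.9) to 30.5 in OTM (27.9 to 33.3), a ratio of 0.721 (0.639 to 0.812). C1qb went from 42.2 to 21.0 CPM, a ratio of 0.497 (0.435 to 0.568), and C1qc from 28.6 to 18.1 CPM, a ratio of 0.632 (0.543 to 0.735). Axl went from 12.97 to 3.89 CPM, a ratio of 0.2995 (0.222 to 0.3998), and Mertk from 1.24 to 4.19 CPM, a ratio of 3.37 (1.98 to 6.02). Pf4 went from 12.4 to 19.1 CPM, a ratio of 1.53 (1.27 to 1.85), of which 75 of 314 OTM UMIs came from 1 cell. Vcam1 went from 27.9 to 21.2 CPM, a ratio of 0.762 (0.659 to 0.882), and Trem2 from 21.4 to 21.2 CPM, a ratio of 0.991 (0.848 to 1.16). On log2 ratios 2 of the 8 genes (C1qb and Axl) were at least 2-fold lower and 1 (Mertk) at least 2-fold higher, where 8.14% of 10868 genes were 2-fold lower and 1.98% 2-fold higher.

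The median gene was itself lower in OTM, with a log2 ratio of -0.22 over all cells and -0.18 in monocyte/macrophage-like cells. Relative to it, C1qa was at -0.25, C1qb at -0.78, C1qc at -0.44, Vcam1 at -0.17, Axl at -1.51, Trem2 at 0.21, Pf4 at 0.84 and Mertk at 1.95 on the log2 scale over all cells. The side of 1 on which the Trem2 ratio lay depended on the processing, at 1.16 with TMM scaling, 1.18 without the deepest 5% of barcodes and 1.28 with a stricter cell filter of at least 200 genes per 1000 UMIs.

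Within monocyte/macrophage-like cells the ratio of Vcam1 was lower, at 0.401 (0.316 to 0.506), with 29.9 CPM in the control and 11.99 in OTM. The progenitor-like cells, which it leaves out, held 27.7% of Vcam1 UMIs in the control and 44.3% in OTM. In those cells Vcam1 was higher in OTM, at 173 CPM (147 to 202) against 115 CPM in the control (94.8 to 139). In neutrophil-like cells it was at 13.2 CPM in OTM (10.6 to 16.3) and 10.5 CPM in the control (7.95 to 13.7). The ratios of C1qa (0.720), C1qb (0.484), C1qc (0.630), Axl (0.273) and Mertk (3.07) were close to those over all cells. Here 3 of the 8 genes (C1qb, Vcam1 and Axl) were at least 2-fold lower and 1 (Mertk) at least 2-fold higher, where 7.34% of 10053 genes were 2-fold lower and 2.42% 2-fold higher. With only cells of at most 10% neutrophil RNA, the ratios of the C1q chains were further from 1, at 0.396 for C1qa, 0.286 for C1qb and 0.341 for C1qc. The Pf4 ratio was 1.61 (1.32 to 1.97) in all monocyte/macrophage-like cells, 1.15 with only cells of at most 10% neutrophil RNA and 1.07 with the stricter cell filter.

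**Figure D5:**
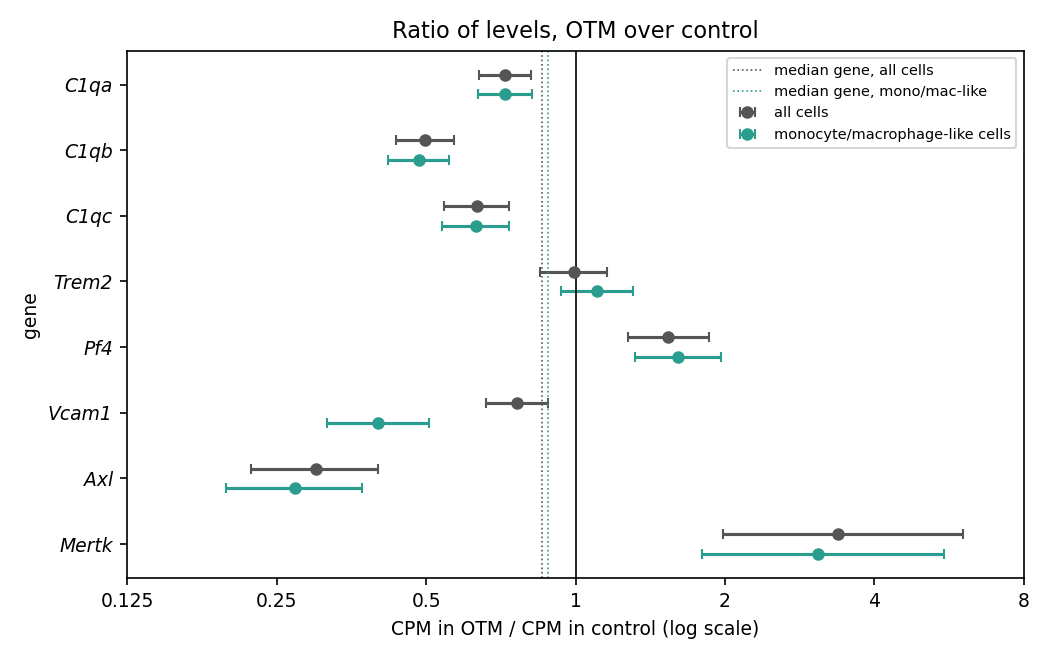
Ratio of CPM in OTM to CPM in control (x axis, log scale) for each gene over all cells (grey) and over monocyte/macrophage-like cells (green), with 95% conditional binomial intervals for counting error and dotted lines at the median gene. C1q chains, Vcam1 and Axl lie below 1 in both, Trem2 spans 1, and Pf4 (1.53 over all cells) and Mertk (3.37) lie above it.

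Trem2 was found in more OTM cells, at a level that did not differ beyond counting error. In monocyte/macrophage-like cells the share with a UMI was 7.83% in the control (6.52 to 9.31) and 19.2% in OTM (16.8 to 21.8), while the level was 33.2 CPM (29.3 to 37.5) and 36.7 CPM (32.8 to 40.9), a ratio of 1.10 (0.935 to 1.30), and after thinning the shares were 3.50% and 4.73%. The highest cell had 22 Trem2 UMIs in the control and 8 in OTM, and the 10 highest cells held 37.4% and 17.5% of its UMIs. Axl had a UMI in 7.83% of control (6.52 to 9.31) and 3.70% of OTM cells (2.62 to 5.06), or 3.07% and 0.878% after thinning. Mertk had one in 0.937% (0.513 to 1.57) and 5.39% (4.08 to 6.98), or 0.487% and 1.14% after thinning.

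In monocyte/macrophage-like cells, 5 of 15 counted resident macrophage genes were at least 2-fold lower in OTM and none higher, against 7.34% and 2.42% of all genes, with a median log2 ratio of -0.68 against -0.18 over all genes. Fcna was at 0.0364 (0.00429 to 0.139) with 49 UMIs in the control and 2 in OTM, and Timd4, a phosphatidylserine receptor of long-lived macrophages, at 0.155 (0.0390 to 0.454) with 23 and 4. Lgmn, the lysosomal protease legumain, was highest at 1.73 (1.61 to 1.85), followed by Siglec1 at 1.41 (0.651 to 3.19). Of 12 complement genes, 2 were at least 2-fold higher and none lower, against the same shares, with a median of 0.26. They were C4b, a component that C1q-bound proteases cleave, at 6.69 (4.08 to 11.6) and C5ar1, the C5a receptor, at 2.40 (2.28 to 2.53), while C1ra was at 0.669 (0.319 to 1.37) and C3 at 0.733 (0.674 to 0.797).

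Against the 2.42% of all genes that were 2-fold higher in OTM and the 7.34% that were lower, of 12 TREM2 signalling genes 1 was higher, Apoe at 2.68 (2.63 to 2.74), and 1 lower, Lpl at 0.200 (0.151 to 0.262). Gpnmb was at 1.51 (1.08 to 2.12) and Inpp5d, an inhibitory phosphatase, at 0.574 (0.489 to 0.673), and the median was -0.10. Of 13 clearance genes 3 were lower and none higher, with a median of -0.33. The 3 include Timd4, which is also counted among the resident macrophage genes. Gas6 was lowest at 0.127 (0.0325 to 0.364) with 28 and 4 UMIs, and the other end was Mfge8 at 1.34 (0.810 to 2.24) and Havcr2 at 1.32 (1.03 to 1.70). Of the integrin partners of VCAM1, Itga4 was at 0.692 (0.615 to 0.778), Itgb7 at 0.902 (0.828 to 0.983) and Itgb1 at 0.982 (0.863 to 1.12).

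The genes whose pattern over cells was most like that of summed C1q were sought among 4356 genes with at least 200 UMIs in each library, by the smaller of the 2 libraries' correlations (Pearson r of log-normalised values over 2835 and 2052 cells). Ms4a7, a membrane protein of macrophages, was first with r of 0.47 in both, followed by H2-Aa (0.29 in the control and 0.27 in OTM), H2-Ab1 (0.28 and 0.26), Ccl12 (0.34 and 0.24) and Pltp (0.23 and 0.31). Aif1, Cd74, H2-Eb1, Lgmn and Cxcl16 completed the 10, with a smaller r from 0.23 down to 0.21. Among the 5 marker genes Pf4 had r of 0.39 and 0.50, Vcam1 0.37 and 0.33, Axl 0.45 and 0.25, Trem2 0.22 and 0.13 and Mertk 0.38 and 0.06. Cells of a library share its depth and free RNA, and most of these values are weak.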

How the data were processed

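Libraries were prepared with the 10x Genomics 3′ v2 kit from pooled mice, 1 library per group. Per the labels the authors used Cell Ranger 3.0.0 (mm10) and Seurat 3.0.0. The deposited files hold raw UMI counts per gene and barcode (27998 genes, 2863 control and 2058 OTM barcodes, with 14620877 and 16500733 UMIs), fewer barcodes than the cells the study counts.

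Barcodes with at least 200 genes and at most 5% mitochondrial UMIs were kept. The study's wording of 200 genes per 1000 UMIs was an alternative. Clustering was run per library in Seurat 5.3.0 (R 4.3.3) on genes found in over 3 cells, after LogNormalize, regression of UMIs and mitochondrial share, with 12 (control) or 8 (OTM) components at resolution 0.6 and with the 8 genes left out of the features. A cluster was called B cell-like with 3 markers in at least 25% of cells, granulocyte progenitor-like with 3 in at least 50%, and otherwise monocyte/macrophage-like or neutrophil-like by the higher mean scaled detection of its markers, a rule set after the clusters were seen. Scrublet (scanpy 1.11.5) marked 0 control and 137 OTM cells, so it did not work on the control, and no doublets were removed.

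CPM are UMIs summed over cells per 1000000 summed UMIs. Intervals are 95% exact Poisson (levels), Clopper-Pearson (shares) or conditional binomial (ratios). Log2 ratios had 0.5 UMIs added, and genes with at least 20 UMIs in the cells compared were counted, past 2-fold. The rule for named genes took the 8 genes, the 2 highest and 2 lowest ratios of each list, and the 10 genes most like C1q. Some list genes that this rule names are not reported here. To lead a cluster, a gene needed 50 CPM and detection in 25% of cells there. The ratio step was tested on simulated data. The 8 genes and the lists were chosen with earlier results of these data known, and the study itself named a cluster by some of them. Gene positions are from GENCODE vM21. edgeR 4.0.16 was used for TMM scaling only.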

Additional observations from a re-analysis of the deposited data

How the results depend on the processing

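No paired analysis was possible because each group has 1 library. Leaving out a replicate was not possible for the same reason. Over 17 alternative settings and 94 results, 586 values were computed, of which 411 stayed within the counting interval of the main value (or within 1.5 times a count), 175 moved beyond it and 0 changed the direction of a ratio whose interval excluded 1. The settings on cells with at most 10% neutrophil RNA and on leaving out the highest cell were added after seeing the data. The share of C1q-positive cells in the control and OTM was 1.91% and 0.869% after thinning to 1500 UMIs, 6.70% and 5.12% with 1 UMI of any chain, 2.05% and 0.390% of all cells when C1q-positive cells with over 10% neutrophil RNA were not counted as positive, and 2.12% in the control with at least 5 C1q UMIs. The order of the libraries was the same in each.

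The number of genes at least 2-fold higher in OTM over all cells was 215, and 341 with TMM scaling, 143 among genes with at least 50 UMIs and 437 among genes with 1 UMI in each library. The number 2-fold lower was 885, and 526, 511 and 1541 under the same 3 settings. In monocyte/macrophage-like cells, 243 genes were higher (478 with 1 UMI in each library) and 738 lower (392 with at least 50 UMIs and 1290 with 1 UMI in each library). Levels in the highest cluster moved with the clustering, and ratios in C1q-positive cells moved with the rule for calling them. With the study's wording of the filter (2444 control and 1255 OTM cells), the Pf4 ratio in monocyte/macrophage-like cells was 1.07. Depth limits Mertk most, at 18 UMIs in the control.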

Other observations

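Of the 28 control barcodes removed by the filter, 2 were C1q-positive, and of the 6 removed OTM barcodes none was. Among the 5 OTM cells with the most Trem2, 1 lay in a neutrophil-like cluster but had 93 Acp5, 43 Ctsk and 10 Atp6v0d2 UMIs, with 7 Trem2 and 4 Axl UMIs and no C1q. Among the 5 control cells with the most Vcam1, 1 had 20 Vcam1 and 76 Apoe UMIs and no UMI of C1q, Trem2, Pf4, Axl or Mertk.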
